A study of Homo sapiens with 6 samples.

Results

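Nucleolar ribosome biogenesis factors are the proteins that turn the precursor of ribosomal RNA (rRNA) into ribosomal subunits, and their mRNA levels are described here in A549 cells, a human lung adenocarcinoma line, with and without silencing of FSCN1. Members were the protein-coding genes whose symbols belong to a fixed set of names, namely the UTP, NOP, RRP and NOL series together with RRS1, IMP3, IMP4, MPHOSPH10, BOP1, PES1, WDR12, FBL, NCL, NPM1, DKC1, NHP2, GAR1, NOLC1, BYSL and FTSJ3. The rule used no measured value and found 51 of the 30230 genes in the count table, of which 50 had enough reads for a test. The member without a test was NOL4, which had no more than 2 counts in any library.

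RNA sequencing covered 6 libraries of polyadenylated RNA, 3 from control cells (NC) and 3 from cells treated with a small interfering RNA against FSCN1 (siFSCN1), which encodes fascin, a protein that bundles actin filaments. The study states that the NC cells received a scrambled siRNA and that the replicates were biological. Its silenced libraries all came from the same siRNA, out of several against FSCN1. The treatment label of the NC samples names a control plasmid instead. By the study's account the groups differ by 1 siRNA, at 1 time of collection and in 1 cell line. By the label they may also differ in the kind of molecule transfected. Other effects of the siRNA or of the transfection cannot be told apart here from those of the loss of FSCN1. The comparison asks how these transcripts change when FSCN1 is silenced.

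In the nucleolus, RNA polymerase I transcribes a long precursor that holds the rRNAs of both subunits. The small subunit processome, a large particle built around the U3 small nucleolar RNA, folds and cleaves the part that becomes the small subunit, while other factors assemble the large subunit around the remaining rRNA. Small nucleolar ribonucleoproteins (snoRNPs) guide chemical modification, with box C/D particles adding methyl groups to riboses and box H/ACA particles converting uridines to pseudouridines. Tumour cells that divide rapidly often have prominent nucleoli, and many of these genes are known as targets of the transcription factor MYC, which binds the sequence CACGTG (an E-box) together with MAX.

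Promoter sequences are shown first, since an E-box was present in a larger share of the members than of all genes, a feature that the selection rule did not use. RefSeq promoter windows (GRCh38.p14, 250 bases before to 50 bases after each start) were given for 42 of the 51 members. CACGTG, which reads the same on both strands, was found in the windows of 17 of these 42 genes (40.5%), compared with 8.77% of all 27305 genes with a window, 11.8% of the protein-coding genes of the count table and 6.35% of 63 cytosolic ribosomal protein genes. The following 30-base stretches, written 5′ to 3′ on the strand of the gene with the E-box in capitals, come from members of the snoRNPs, the small subunit processome, the late small subunit pathway and the large subunit pathway, and each lies close to a start site.

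FBL: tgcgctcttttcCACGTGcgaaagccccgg
RRP9: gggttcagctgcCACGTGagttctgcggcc
NOP10: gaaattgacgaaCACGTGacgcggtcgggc
UTP4: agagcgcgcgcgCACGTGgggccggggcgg
UTP18: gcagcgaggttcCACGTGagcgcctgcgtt
NOL6: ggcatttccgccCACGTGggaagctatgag
BYSL: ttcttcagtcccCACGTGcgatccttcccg
PES1: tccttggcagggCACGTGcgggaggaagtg

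The FBL stretch is chr19:39846356-39846385 on the minus strand, and its E-box begins 7 bases from the start site. RRP9 is chr3:51941892-51941921 (minus), with the E-box at -5, and NOP10 is chr15:34343130-34343159 (minus), at -11. UTP4 is chr16:69132621-69132650 (plus), at -16, UTP18 is chr17:51260538-51260567 (plus), at 5, and NOL6 is chr9:33473894-33473923 (minus), at 14. BYSL is chr6:41921515-41921544 (plus), at 29, and PES1 is chr22:30591880-30591909 (minus), at 14. All 8 stretches overlap an annotated exon in GENCODE v44. A match of these letters is a description of the sequence and does not show that a factor binds there.

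The libraries held between 27967301 and 36560919 counts, and the 51 members between them took about 0.7% of those in NC. FSCN1 had deposited FPKM values (fragments per kilobase of gene, corrected for sequencing depth) of 44.98, 47.24 and 45.99 in NC and 4.46, 2.82 and 3.19 in siFSCN1, so that every silenced library lay far below every control. Its log2 fold change was -3.89 ± 0.094 (SE, n = 3 per group) with an adjusted p of 8.1e-16. All 8 markers of A549 or epithelial cells that were examined had reads in every library, from 2.8 FPKM for EPCAM to 3030 FPKM for AKR1B10. Of these markers, 5 fell in siFSCN1, namely KRT7 (-1.19), KRT8 (-0.88), KRT18 (-0.99), KRT19 (-1.10) and AKR1C1 (-0.29), EPCAM rose (0.29, adjusted p 0.0227), and AKR1B10 and TXNRD1 did not pass the test (log2 fold changes). Of 7 markers of leukocytes, endothelium and muscle, 5 (PTPRC, CD3E, PECAM1, VWF and DES) did not exceed 0.03 FPKM in any library, and the other two had no row.

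Most ribosome biogenesis factors were lower in siFSCN1. With edgeR's quasi-likelihood test and Benjamini-Hochberg adjustment over all 17076 genes tested, 43 of the 50 tested members fell and 3 rose (NOLC1, MPHOSPH10 and RRP12) at an adjusted p under 0.05, and 4 did not pass the test (NOL6, NOL8, NOL10 and UTP23). Among all genes tested, 33.2% fell and 35.1% rose. The median log2 fold change, siFSCN1 over NC after TMM scaling, was -0.56 over the members and 0.03 over all genes. Most falls were moderate, since 4 members passed a 2-fold threshold, with UTP15, NHP2 and NOL3 lower and NOLC1 higher, against 4.85% of all genes lower and 11.7% higher by that threshold. Standard errors of the members' log2 fold changes did not exceed 0.08.

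More abundant genes were lower in siFSCN1 more often, and most members are abundant. Among the 5318 tested genes with a mean deposited FPKM of at least 5, a background chosen after the data were seen, 59.1% fell and 23.2% rose. Of the 41 members at this level, 36 fell and 3 rose, with a median log2 fold change of -0.57 against -0.22 for all genes at this level. Scaling by library totals alone, with no correction for composition, moved the median of all genes to 0.22, and 34 members then fell and 5 rose beside 22.4% lower and 46.7% higher among all genes. The members' own median was -0.37 under that scaling.

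**Figure D1:**
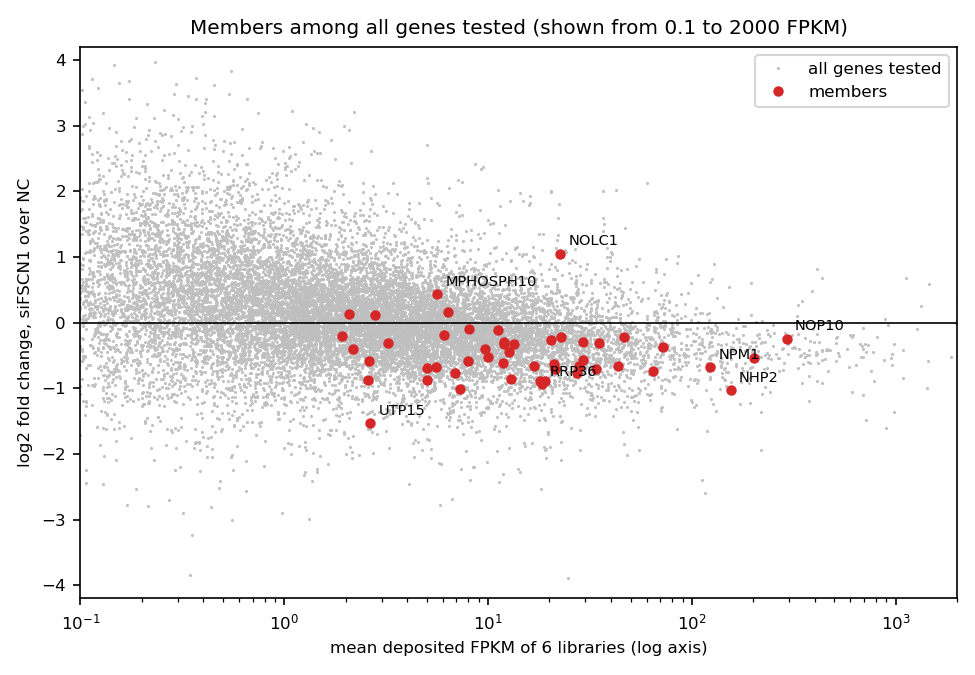
Log2 fold change of siFSCN1 over NC (vertical axis) against the mean deposited FPKM of the 6 libraries (horizontal log axis) for all genes tested (grey) and the members (red). Grey points lie lower on average toward the right, and the members lie mostly below 0, with NOLC1 at 1.05 and UTP15 at -1.53 farthest apart.

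The libraries of a group resembled each other closely. Members took 0.687%, 0.706% and 0.689% of counts in NC and 0.540%, 0.542% and 0.548% in siFSCN1, with no overlap between the groups. The means were 0.694% ± 0.0107 and 0.543% ± 0.00408 (SD, n = 3), a ratio of 0.783. Without NPM1 and NCL, the members with the most counts, the share was 0.472% ± 0.0054 in NC and 0.388% ± 0.0013 in siFSCN1, a ratio of 0.822. In each library the median member deviated from its NC mean by between -0.01 and 0.01 in NC and by -0.54, -0.56 and -0.56 in siFSCN1, on the log2 CPM scale (counts scaled to library size after TMM). These are shares of sequenced RNA, so a change in the total RNA of a cell cannot be told apart from a change in these transcripts alone.

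**Figure D2:**
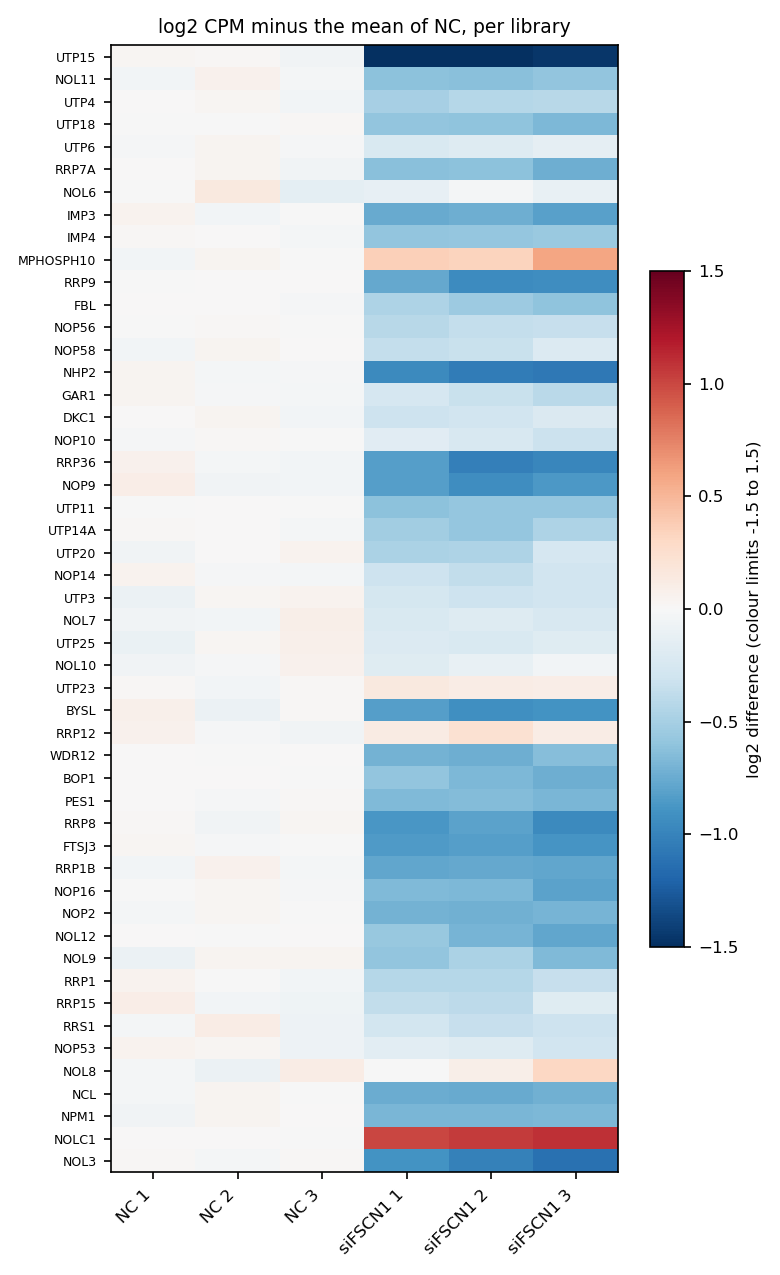
Log2 CPM of each tested member (rows, grouped by role) in each library (columns) minus its mean in NC, with blue for lower and red for higher and the colour scale ending at 1.5 in either direction. The 3 siFSCN1 columns are alike and mostly blue, and NOLC1 and MPHOSPH10 are the clearest red rows.

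On the CPM scale the 3 NC and 3 siFSCN1 values did not overlap for 43 members that were lower in siFSCN1 and 4 that were higher, and they overlapped for NOL6, NOL8 and NOL10. Among all genes tested, 34.4% did not overlap and were lower and 36.8% were higher. On the deposited FPKM scale, which carries no TMM correction, 35 members did not overlap and were lower, 5 were higher and 10 overlapped, beside 24.3% lower and 46.4% higher among all genes. The 10 that overlapped in FPKM were NOL6, NOL7, NOL10, NOP10, NOP53, NOP58, RRP15, UTP3, UTP6 and UTP25.

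**Figure D3:**
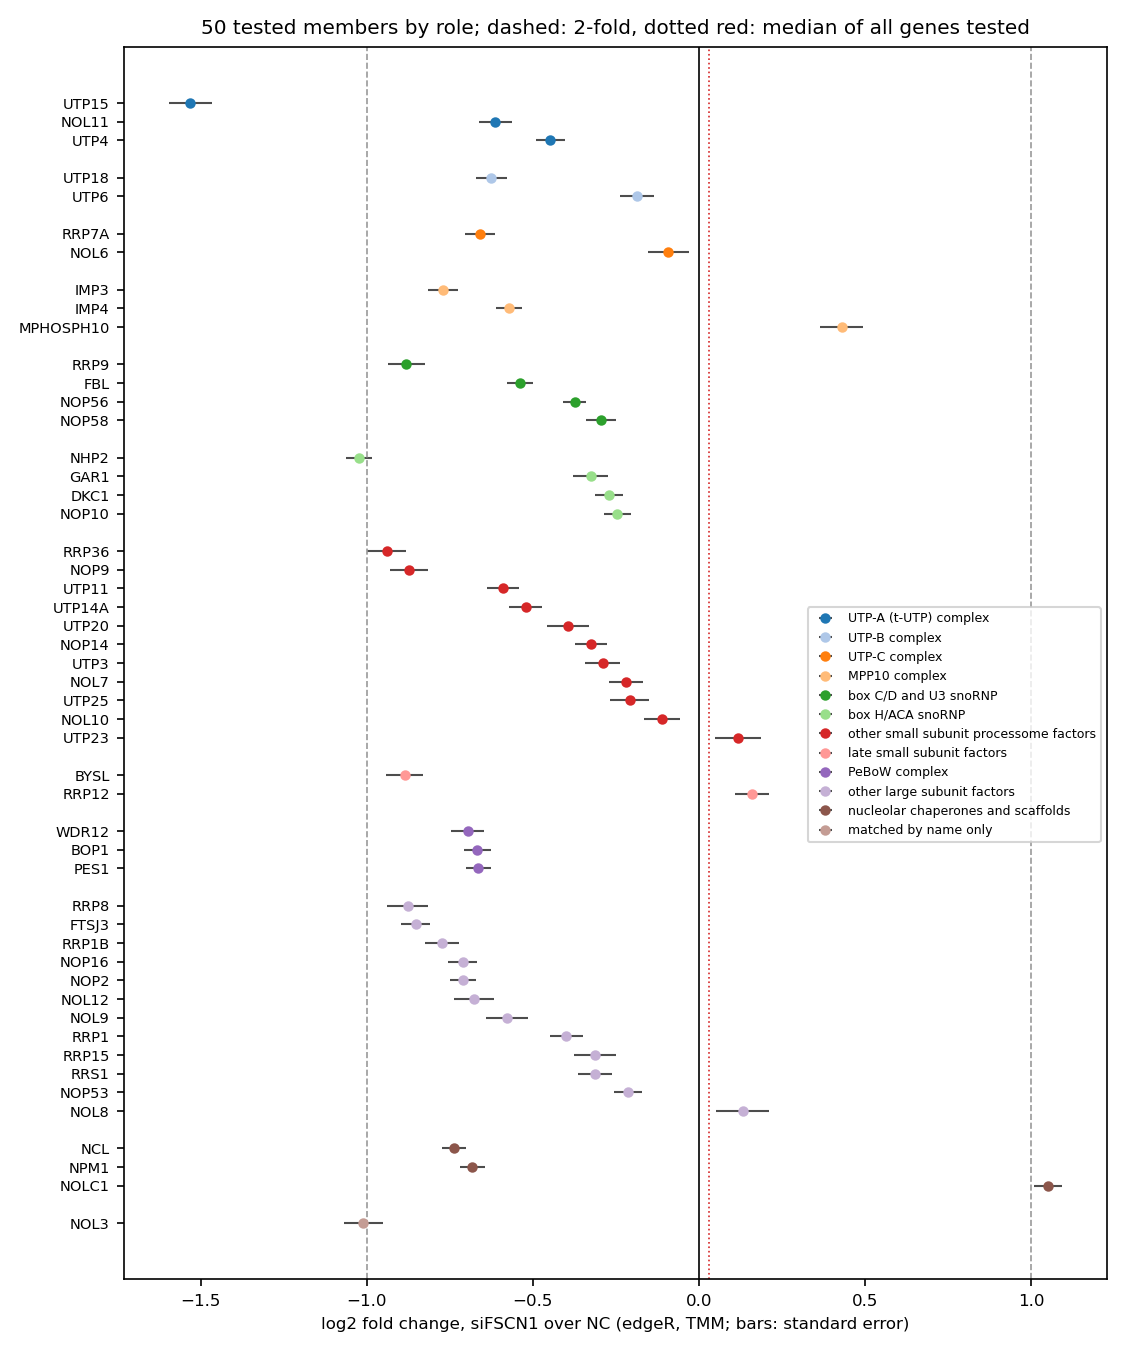
Log2 fold change of siFSCN1 over NC (horizontal axis, bars show the standard error, n = 3 per group) for the 50 tested members, coloured and grouped by role. All members of the snoRNPs and of the complex of PES1, BOP1 and WDR12 lie left of 0, and NOLC1 is the only point beyond the 2-fold line on the right.

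The small subunit pathway held 23 tested members, of which 18 fell, 2 rose and 3 did not pass the test, with a median log2 fold change of -0.45. The share that fell was 33.2% of all genes tested and 59.1% of those at 5 FPKM or more. With library totals 14 of the 23 fell and 3 rose, with a median of -0.26. The first-acting group of this pathway is the UTP-A complex, which joins the nascent precursor and is also needed for its transcription. UTP15 (ENSG00000164338.10, GRCh38 chromosome 5, 73565443 to 73583380), a subunit of this complex, fell the most of all members. Its deposited FPKM values were 3.84, 3.86 and 3.71 in NC and 1.49, 1.38 and 1.55 in siFSCN1. Every silenced library lay far below every control, and the log2 fold change was -1.53 ± 0.064 (SE) with an adjusted p of 4.5e-13, so that siFSCN1 held 34.6% of the NC level. The gene ANKRA2 overlaps UTP15 on the opposite strand. The labels and the study's methods name different library kits, both of which keep the strand, but whether the counting used it was not stated. UTP4, the most abundant subunit of the complex in this set and the gene mutated in a childhood liver cirrhosis, measured 13.94, 14.28 and 13.73 FPKM in NC and 11.29, 11.48 and 11.74 in siFSCN1, without overlap. It fell by 0.45 on the log2 scale (adjusted p 5.9e-08), and NOL11, which binds UTP4, fell by 0.61.

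The UTP-B and UTP-C complexes join the same particle. UTP18, of UTP-B, had 23.95, 24.09 and 24.71 FPKM in NC and 18.30, 17.64 and 16.99 in siFSCN1, with all silenced libraries below all controls. Its log2 fold change was -0.63 ± 0.046 (SE, adjusted p 1.1e-09), whereas its partner UTP6 fell by only 0.19. UTP6 was not called with upper quartile scaling, library totals or the limma fits on log2 FPKM. RRP7A, of UTP-C, had 19.61, 20.27 and 19.07 FPKM in NC and 14.43, 14.16 and 13.25 in siFSCN1. It fell by 0.66 on the log2 scale (adjusted p 3.1e-10) without overlap between the groups. NOL6, the other UTP-C protein, had 7.73, 8.62 and 7.14 FPKM in NC and 8.13, 8.5 and 8.07 in siFSCN1, values that overlap, and a log2 fold change of -0.09 (adjusted p 0.202). Without NC replicate 3 it was called lower (-0.17).

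The MPP10 complex, which brings the U3 snoRNA and the precursor together, did not move as a unit. IMP4 had 33.18, 33.41 and 32.88 FPKM in NC and 25.11, 24.64 and 25.33 in siFSCN1, and IMP3 had 33.55, 31.99 and 32.84 in NC and 22.01, 21.85 and 20.83 in siFSCN1. Both were lower in every silenced library, with log2 fold changes of -0.57 for IMP4 and -0.77 ± 0.046 (SE, adjusted p 4.6e-11) for IMP3. MPHOSPH10, the scaffold that binds both, was higher in every silenced library. It had 4.34, 4.62 and 4.53 FPKM in NC and 6.53, 6.27 and 7.58 in siFSCN1, a log2 fold change of 0.43 ± 0.064 (SE, adjusted p 1.0e-05). Its values, like those of NOL6, RRP12 and NCL, are given in each library by a choice made after they were seen, and the annotation lists 8 pseudogenes named after MPHOSPH10.

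Of the 11 other tested processome factors, 9 fell and 2 did not pass. RRP36, needed for early cleavage of the precursor, fell the most, with 23.90, 22.68 and 22.65 FPKM in NC and 14.82, 12.57 and 13.10 in siFSCN1. Its silenced libraries all lay below its controls, and the log2 fold change was -0.94 ± 0.058 (SE, adjusted p 7.8e-11), which passed the 2-fold threshold without siFSCN1 replicate 1 (-1.02). NOL7, the most abundant of them, had 22.24, 22.63 and 24.82 FPKM in NC and 22.58, 22.56 and 22.03 in siFSCN1. These FPKM values overlap, although after TMM scaling the CPM values do not and the log2 fold change was -0.22 ± 0.050 (SE, adjusted p 7.9e-04). The call was lost with upper quartile scaling, library totals and the limma fits on log2 FPKM.

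The remaining processome factors lay between these. The log2 fold change was -0.87 for NOP9, an RNA-binding protein of the particle, -0.59 for UTP11, -0.52 for UTP14A, which activates the helicase DHX37, and -0.39 for the large scaffold UTP20. NOP14 had a log2 fold change of -0.33, UTP3 of -0.29 and UTP25 of -0.21. The calls of UTP3 and UTP25 were lost with library totals and the limma fits on log2 FPKM, and that of UTP25 also with upper quartile scaling. NOL10 (-0.11, adjusted p 0.0732) and UTP23 (0.12, adjusted p 0.135) did not pass the test. NOL10 changed sign with upper quartile scaling and with library totals, and it was called lower without NC replicate 1 (-0.15) or siFSCN1 replicate 3 (-0.16). UTP23 was called higher with library totals (0.30), upper quartile scaling, the limma fits on log2 FPKM and protein-coding genes only.

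Late steps of small subunit assembly were represented by BYSL, which stays on the particle until the cytoplasm, and by RRP12, an export factor. BYSL had 23.21, 20.98 and 22.70 FPKM in NC and 14.28, 13 and 13.36 in siFSCN1, with no overlap. It fell by 0.89 on the log2 scale (SE 0.055, adjusted p 1.0e-10). RRP12 had 5.85, 5.59 and 5.51 FPKM in NC and 7.01, 7.35 and 6.85 in siFSCN1, so it was higher in each silenced library. Its log2 fold change of 0.16 ± 0.051 (SE, adjusted p 0.0104) lost its call with DESeq2 (adjusted p 0.0557), without NC replicate 3 (adjusted p 0.0737) and without siFSCN1 replicate 2 (adjusted p 0.0998).

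All 8 snoRNP proteins fell, with a median log2 fold change of -0.35. Among all genes tested 33.2% fell, and 59.1% of the abundant ones (5 FPKM or more) did. With library totals 5 of the 8 fell and 3 did not pass. Once the trend of fold change with abundance was subtracted, the median of the 8 was -0.15. All 8 stayed negative, from -0.80 for RRP9 to -0.0027 for NOP10, with FBL at -0.22. FBL, the methyltransferase of box C/D particles, had 227.09, 230.36 and 228.31 FPKM in NC and 188.62, 173.47 and 167.93 in siFSCN1. Every silenced library was lower, and the log2 fold change was -0.54 ± 0.040 (SE, adjusted p 9.3e-10). Its core partners had log2 fold changes of -0.37 (NOP56) and -0.29 (NOP58), and NOP58 was not called with library totals. RRP9, which joins the U3 particle alone and not the other box C/D particles, had 23.44, 23.85 and 24.01 FPKM in NC and 15.87, 13.65 and 13.92 in siFSCN1. Its log2 fold change was -0.88 ± 0.056 (SE, adjusted p 1.2e-10), without overlap.

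Box H/ACA proteins are also part of telomerase. NHP2 (ENSG00000145912.9, GRCh38 chromosome 5, 178149463 to 178153894) had 203.84, 195.56 and 199.66 FPKM in NC and 117.36, 106.77 and 106.67 in siFSCN1, and its silenced libraries were far below its controls. The log2 fold change was -1.02 ± 0.040 (SE, adjusted p 1.8e-13), or 49.2% of the NC level. It was under 2-fold with settings that included upper quartile scaling (-0.91), library totals (-0.84) and the abundance trend subtracted (-0.75). RMND5B overlaps NHP2 on the opposite strand. NOP10, the member with the highest FPKM, had 294.29, 303.63 and 300.48 FPKM in NC and 302.49, 279.77 and 268.30 in siFSCN1, which overlap. Its log2 fold change after TMM scaling was -0.25 ± 0.041 (SE, adjusted p 4.1e-05), and it was -0.0027 once the trend of fold change with abundance was subtracted. DKC1, the pseudouridine synthase, had a log2 fold change of -0.27 and GAR1 one of -0.33. With library totals neither DKC1 nor NOP10 was called, and NOP10 was also not called in the limma fits on log2 FPKM.

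**Figure D4:**
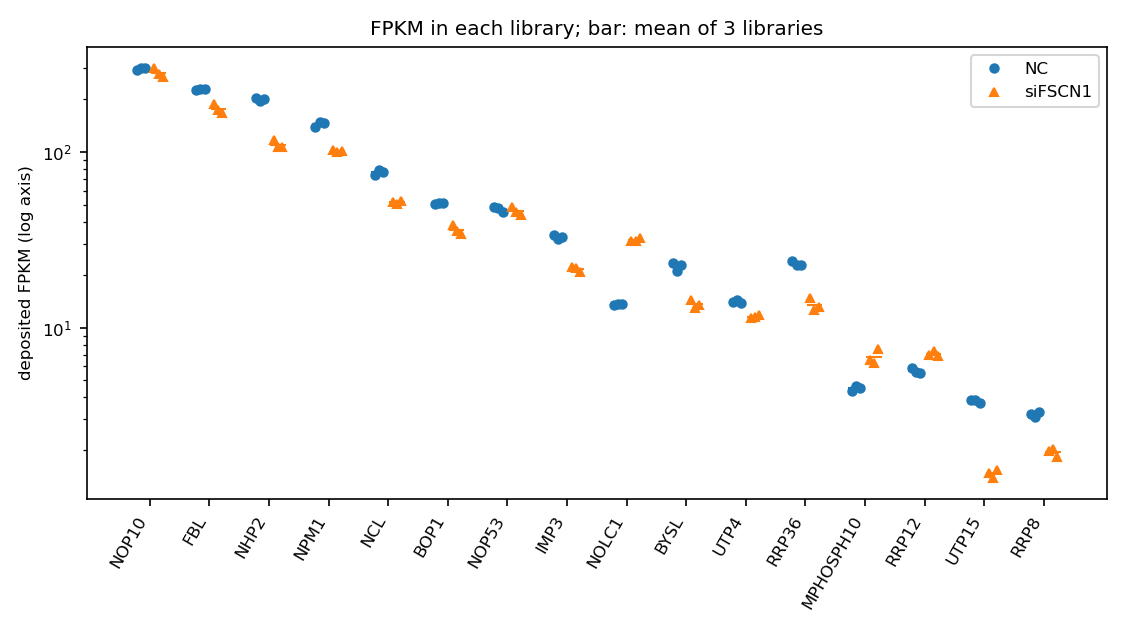
Deposited FPKM (log axis) in each NC (circles) and siFSCN1 (triangles) library for 16 members, with bars at the mean of 3 libraries. The triangles lie above the circles for NOLC1, MPHOSPH10 and RRP12, overlap them for NOP10 and NOP53, and lie below them for the other members shown.

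Large subunit factors fell in nearly every case. Of 15 tested members, 14 fell, none rose and NOL8 did not pass (log2 fold change 0.13, adjusted p 0.151), with a median of -0.67. The share that fell was 33.2% of all genes tested and 59.1% of those at 5 FPKM or more. With library totals 12 of the 15 fell and 1 rose, with a median of -0.48. NOL8 was called higher with library totals (0.32), upper quartile scaling and the limma fits on log2 FPKM. PES1, BOP1 and WDR12 form 1 complex needed for processing of large subunit rRNA, and they changed to a similar extent. BOP1 had 50.82, 51.36 and 51.17 FPKM in NC and 38.47, 35.58 and 34.34 in siFSCN1, and WDR12 had 5.88, 5.89 and 6.01 in NC and 4.11, 3.94 and 4.26 in siFSCN1. Neither gene overlapped between the groups, and the log2 fold changes were -0.67 ± 0.040 for BOP1, -0.66 for PES1 and -0.70 ± 0.049 for WDR12 (SE).

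RRP8, a base methyltransferase of large subunit rRNA, fell the most of the other large subunit factors. It had 3.20, 3.08 and 3.30 FPKM in NC and 1.99, 2.03 and 1.84 in siFSCN1, without overlap, and fell by 0.88 on the log2 scale (SE 0.062, adjusted p 5.1e-10). FTSJ3, a ribose methyltransferase, had a log2 fold change of -0.85 and NOP2, a cytosine methyltransferase, one of -0.71. The assembly and processing factors RRP1B (-0.77), NOP16 (-0.71), NOL12 (-0.68) and RRP1 (-0.40) and the RNA kinase NOL9 (-0.58) also fell. RRP15 and RRS1, the latter a factor for incorporating the 5S particle, each had a log2 fold change of -0.31. RRP15 was not called with library totals or the limma fits on log2 FPKM. NOP53, the most abundant by FPKM, had 48.53, 48.17 and 45.45 FPKM in NC and 48.37, 45.74 and 43.57 in siFSCN1. These values overlap, and its log2 fold change was -0.21 ± 0.042 (SE, adjusted p 2.3e-04), which became 0.07 once the abundance trend was subtracted. NOP53 was not called with upper quartile scaling, library totals or the limma fits on log2 FPKM.

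The nucleolar chaperones and scaffolds moved in opposite directions. NPM1, an abundant chaperone of the nucleolus, had 138.50, 148.12 and 146.90 FPKM in NC and 102.23, 99.78 and 101.12 in siFSCN1, and every silenced library was lower. Its log2 fold change was -0.68 ± 0.037 (SE, adjusted p 1.3e-11), and the annotation lists 49 pseudogenes named after it. NCL, nucleolin, had 74.37, 79.16 and 77.29 FPKM in NC and 52.29, 50.65 and 52.40 in siFSCN1, likewise without overlap, and fell by 0.74. NOLC1 (ENSG00000166197.17, GRCh38 chromosome 10, 102152176 to 102163871), a phosphoprotein that binds snoRNPs in the nucleolus, went the other way. It had 13.46, 13.64 and 13.63 FPKM in NC and 31.02, 31.05 and 32.57 in siFSCN1. Each silenced library was more than 2-fold above each control, and the log2 fold change was 1.05 ± 0.043 (SE, adjusted p 2.9e-13), or 207% of NC after TMM scaling. No gene overlaps NOLC1 on the opposite strand in GENCODE v44, and its log2 fold change lay between 1.02 and 1.25 in all 17 alternative analyses.

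NOL3 matched the rule by its name, but encodes an inhibitor of apoptosis and no ribosome factor. It had 9.37, 9.11 and 9.51 FPKM in NC and 5.69, 5.10 and 4.80 in siFSCN1, without overlap, and a log2 fold change of -1.01 ± 0.059 (SE, adjusted p 3.6e-11). That change was under 2-fold with settings that included upper quartile scaling (-0.89), library totals (-0.82), the abundance trend subtracted (-0.97) and leaving out siFSCN1 replicate 3 (-0.97). Over all alternatives it lay between -1.09 and -0.74. Without NOL3 and NOL4, 42 of 49 members fell and 3 rose, with a median of -0.54. In GENCODE v44, 26 of the 51 members overlap a gene on the opposite strand. Of the 25 tested members that do not, 21 fell and 2 rose, with a median of -0.54, and this group includes neither UTP15 nor NHP2. Of the 6 members that carry snoRNA genes within them (NCL, NOP56, NOP58, DKC1, NOL11 and NOP53), all 6 fell, with a median of -0.33. Among all genes tested 33.2% fell, and 59.1% of the abundant ones (5 FPKM or more) did. With library totals 3 of these 6 members fell and 3 did not pass, with a median of -0.15. After subtraction of the abundance trend the median of the 6 was -0.08, and NOP53 was positive (0.07).

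Members with and without an E-box both fell. Of the 17 with CACGTG, such as BYSL, RRP9 and PES1 whose sequences are shown above, 15 fell and none rose, with a median log2 fold change of -0.45, and NOL6 and NOL8 did not pass. Of the 24 tested members whose window holds no CACGTG, all 24 fell, with a median of -0.68, and these include UTP15, NHP2 and RRP36. The share that fell was 33.2% of all genes tested and 59.1% of those at 5 FPKM or more. With library totals 12 of the 17 fell and 1 rose (NOL8), while 19 of the 24 fell and 5 did not pass. After subtraction of the abundance trend, NOP53 among the 24 was positive (0.07). Positions were kept for printing only with 12 bases on each side inside the window, which left out NOP2 and UTP14A. In the 15 members kept, 14 of 18 CACGTG positions lie within 35 bases of the start site. The window ends 50 bases after the start, so every kept position after the start had to lie within 35 bases of it. GGGCGG, a binding sequence of SP1 searched on both strands, was in the windows of 66.7% of the members, 48.3% of all genes and 71.1% of protein-coding genes of the count table. TATAAA, searched on both strands, was in a window of 4.76% of the members, 14% of all genes and 10.4% of protein-coding genes of the count table. The members that rose, NOLC1, MPHOSPH10 and RRP12, had no window in the table.

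The level of MYC itself depended on the scaling. Its FPKM values were 20.23, 20.96 and 20.82 in NC and 20.15, 20.26 and 21.05 in siFSCN1, which overlap. After TMM scaling it fell by 0.18 on the log2 scale (SE 0.041, adjusted p 9.2e-04), and it was not called with upper quartile scaling (-0.06) or library totals (0.01). Of 11 genes of the MYC network, 4 fell and 4 rose under TMM, and 3 fell and 5 rose under library totals. The largest fall was that of MXD1 (-0.88), a competitor of MYC for MAX, at 0.50 to 0.57 FPKM in NC and 0.29 to 0.37 in siFSCN1, and the largest rise that of MGA (0.63), another partner of MAX.

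Other genes of ribosome production, taken from lists chosen with earlier results known, moved in the same direction as the members for the most part. Of 16 genes of RNA polymerase I and its factors, 12 fell and 1 rose, with a median of -0.25, and with library totals 7 fell and 4 rose. POLR1E, a polymerase subunit, fell by 0.81, and TAF1C, of the promoter factor SL1, rose by 0.99, from 1.92, 2.20 and 2.34 FPKM in NC to 4.77, 4.76 and 4.85 in siFSCN1, without overlap. Among small subunit factors outside the rule, 26 of 32 tested fell and 1 rose (RIOK2, a late kinase, at 0.36), with a median of -0.38. With library totals 20 of the 32 fell and 3 rose. The share that fell after TMM scaling was 33.2% of all genes tested and 59.1% of those at 5 FPKM or more. EMG1, a pseudouridine methyltransferase, had 12.04, 11.62 and 12.34 FPKM in NC and 4.63, 4.58 and 4.19 in siFSCN1, which is below every control, and its log2 fold change of -1.59 (adjusted p 2.1e-14) was close to that of UTP15.

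Among large subunit factors outside the rule, 34 of 40 fell and 1 rose (URB1, at 0.21), with a median of -0.39, and LAS1L, which cuts the spacer between large subunit rRNAs, fell by 1.23, from 6.05, 6.24 and 5.93 FPKM to 2.99, 2.94 and 2.79. With library totals 24 of the 40 fell and 3 rose. Of 14 genes of the RNA exosome, which trims rRNA ends, 12 fell and none rose, with a median of -0.48, and EXOSC6 fell the most (-1.23). With library totals 10 of the 14 fell and none rose. Cytosolic ribosomal protein genes fell in 77 of 79 cases and none rose. The share that fell was 33.2% of all genes tested and 59.1% of those at 5 FPKM or more. With library totals 63 of the 79 fell and 3 rose, with a median of -0.22. After TMM scaling the median of the ribosomal protein genes was -0.41, less negative than that of the members. Their largest fall was that of RPS26 (-2.39). After subtraction of the abundance trend, 52 of the called ribosomal protein genes had a negative and 25 a positive log2 fold change, whereas for the members 42 were negative and 4 positive. The medians were then -0.04 for the ribosomal protein genes, -0.36 for the members and -0.03 for all genes.

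**Figure D5:**
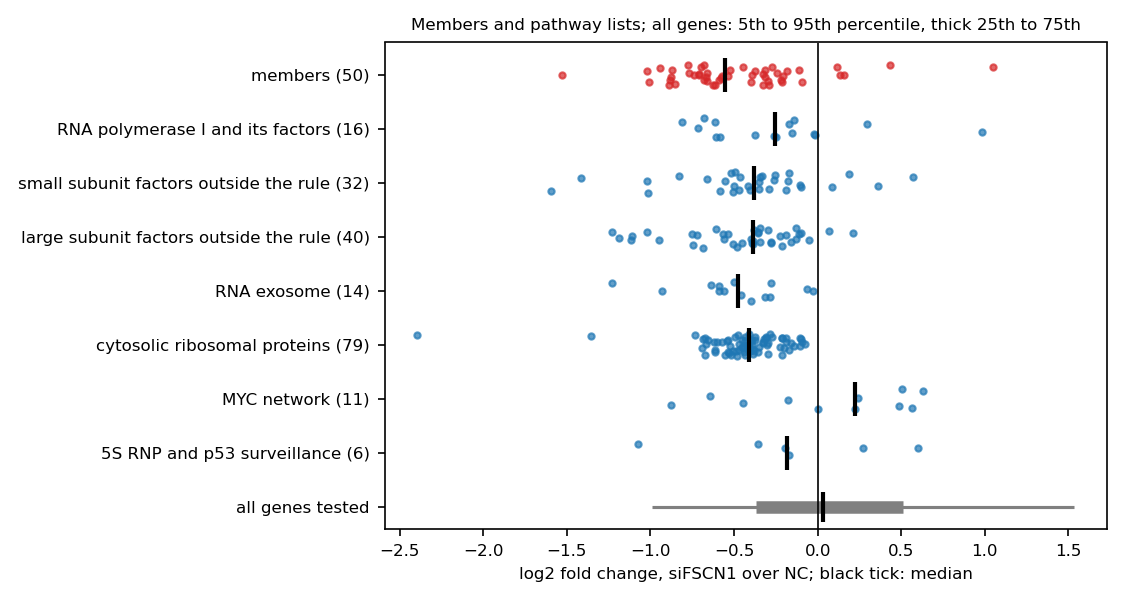
Log2 fold change of siFSCN1 over NC (horizontal axis) of each tested gene among the members (red) and the pathway lists (blue), with a black tick at each median, and the spread of all genes tested in grey (thin bar for the outer and thick bar for the central percentiles named in its title). The members' median of -0.56 is the lowest of the medians shown, and that of the MYC network (0.23) is the highest. The latter is the value of MYCL, a gene at 0.14 to 0.23 FPKM that did not pass the test.

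Faulty ribosome assembly is known to act on p53 through the 5S particle and MDM2. Of 6 such genes, 4 fell and 2 rose, with a median of -0.18, and with library totals 2 fell and 2 rose. CDKN1A, the p53 target that halts the cell cycle, fell by 1.07, from between 71.33 and 71.84 FPKM in NC to between 36.95 and 39.03 in siFSCN1. MDM4, an inhibitor of p53, rose by 0.60. RPL5 and RPL11, the protein partners of 5S rRNA, are counted in this list and among the ribosomal proteins.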

How the data were processed

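Sample titles gave the groups and the replicate numbers. The authors deposited raw counts per gene for 30230 genes and FPKM for 29899, after alignment to GRCh38 with HISAT2 per the study's methods (the processing notes name TopHat2). The counting tool, its strand setting and the annotation were not given in the sources used here. Genes were filtered with filterByExpr, scaled by TMM and tested with edgeR 4.0.16 (glmQLFTest, R 4.3.3), with Benjamini-Hochberg adjustment over 17076 genes and no covariate. Log2 CPM used a prior count of 2. DESeq2 1.42.0 and limma 3.58.1 on log2 FPKM (pseudocounts of 0.1 and 1) were alternatives, beside other scalings and filters, protein-coding genes only, a replicate block, subtraction of a loess trend with abundance (span 0.5) and leaving out each library.

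The members and gene lists were chosen with earlier results of these data known, and no set test was run. Every member is named, FPKM in each library is given for the most abundant and most changed gene of each role and for members changed at least 2-fold, and for each list the largest rise and fall are named. Of the identifiers, 30147 (99.7%) were in GENCODE v44. Counting precision is that of 27967301 to 36560919 counts per library, with a biological coefficient of variation of 5.94%. The edgeR test was tried first on simulated counts, where it recovered 86 of 100 genes changed 2-fold and 67 of 100 changed 1.5-fold.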

Additional observations from a re-analysis of the deposited data

How the results depend on the processing

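Of the 50 tested members, 36 kept their direction and their side of the threshold in all 17 alternatives. The count of members that fell lay between 34 (library totals) and 44. The count that rose was 5 rather than 3 with upper quartile scaling, library totals and limma with either pseudocount. Members changed at least 2-fold numbered 2 rather than 4 with upper quartile scaling, library totals, the stricter filter, limma with a pseudocount of 0.1, protein-coding genes only and the abundance trend subtracted, and 1 with a pseudocount of 1. The members' median of -0.56 became -0.57 with RLE scaling, -0.44 with upper quartile scaling, -0.37 with library totals, -0.57 with DESeq2, -0.53 with the stricter filter, -0.38 and -0.35 with limma (pseudocounts 0.1 and 1), -0.51 with protein-coding genes only and -0.36 with the trend subtracted, which alters fold changes and leaves each p as it was. The ratio of summed levels was 0.783, 0.822 without NPM1 and NCL, and 0.767 as a share of FPKM. Leaving out each library in turn gave medians from -0.58 to -0.55, 43 to 44 falls, 2 to 3 rises, 3 to 5 members changed at least 2-fold, and FSCN1 between -4.11 and -3.41 over all alternatives. NOL10 changed sign with upper quartile scaling (0.0068), library totals (0.077), limma (0.055 and 0.051) and the trend subtracted (0.017), as did NOL6 (0.026, 0.095, 0.075, 0.068 and 0.050), UTP6 with library totals (0.00103) and NOP53 with the trend subtracted (0.071). The cause was not tested.

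Replicate numbers did not pair the libraries, since deviations from the group means correlated at -0.03, 0.04 and -0.08 across genes. With the replicate number as a block, 43 members fell, 3 rose, 4 changed at least 2-fold and the median was -0.56, with no call changed. Groups of 3 were too small for a test of single outlying libraries.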
